A study of Mus musculus with 5 samples.

Results

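Mitochondrial ribosomal protein genes were taken as the protein-coding genes of GENCODE release M21 (mouse genome mm10) whose symbol is Mrpl or Mrps followed by a digit. There were 78 such genes among the 20807 protein-coding genes on the autosomes, 51 counted with the large ribosomal subunit and 27 with the small one. Mrps30 and Mrps18a were counted with the large subunit, where their proteins sit despite their names. For all other members the subunit was read from the symbol alone, so it need not hold for each protein. The rule itself uses the symbol and no binding value.

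The study asked where Gfi1, a zinc-finger repressor, and Lsd1, a histone demethylase known as one of its corepressors, bind in medulloblastoma. MG tumors were grown from Prominin1+ neural stem cells of the cerebellum of C57BL/6 mouse pups 5 to 7 days old, infected with retroviruses that carry a stabilised mutant Myc and Gfi1 and transplanted into the cerebella of NSG mice, and tumor cells were taken from adult hosts. Gfi1 was therefore expressed from a virus in every library. Chromatin of 2 tumors, numbered 39 and 41, was immunoprecipitated with a rabbit polyclonal Gfi1 antibody (GNE-CJS-2) or a rabbit polyclonal Lsd1 antibody (ab17721), 1 library per factor and tumor, so that the 4 libraries form 2 pairs; an input sample came from pooled MGB (Myc/Gfi1b) tumors and was not analysed here. No ChIP from normal cerebellum or from a tumor without Gfi1 was analysed here. Each library averages over the cells of a tumor, so that strong binding in few cells and weak binding in many cannot be told apart.

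Mitochondria keep a ribosome of their own, which translates the few proteins still encoded by mitochondrial DNA, all of them parts of the oxidative phosphorylation machinery. Its RNA comes from the mitochondrial genome, but every one of its proteins is encoded in the nucleus, made in the cytosol and imported. Part of these proteins descend from bacterial ribosomal proteins and the rest were gained during the evolution of mitochondria; their promoters tend to be CpG islands with sites for Nrf1, for ETS factors such as Gabpa and for Yy1.

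A gene was counted as bound when a peak lay within 1 kb of any of its annotated transcription start sites (TSS). Every peak of a list was used, not the stricter set of peaks that the study kept for each factor. The strength of a peak is given as its score percentile, its rank from the weakest peak upward as a percent of the peaks in the same list (ties share the mean rank), because the lists differed in length. They held 36836 and 25078 peaks for Gfi1 in tumors 39 and 41, and 30367 and 33213 for Lsd1. Libraries are named below by factor and tumor, and values for several libraries follow the order Gfi1 39, Gfi1 41, Lsd1 39 and Lsd1 41 unless stated. Only peak positions and scores were analysed, not reads, so that no count stands behind a single peak here.

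Promoter sequences of the 3 genes with the highest and the 3 with the lowest mean percentile over the 4 libraries, among the 69 of 78 genes with a RefSeq promoter in the table used, are shown because both ends of the family lie under peaks in every library. They are RefSeq promoters on GRCm38.p6, the assembly of mm10, from 220 bases before to 30 bases after the RefSeq start, written 5′ to 3′ along the gene; capitals mark every match to 1 of the 6 motifs described further on, on either strand. Mrps18b lies on the minus strand at chr17:35916411-35916660, Mrpl40 on the minus strand at chr16:18876608-18876857 and Mrpl49 on the minus strand at chr19:6057726-6057975.
Mrps18b: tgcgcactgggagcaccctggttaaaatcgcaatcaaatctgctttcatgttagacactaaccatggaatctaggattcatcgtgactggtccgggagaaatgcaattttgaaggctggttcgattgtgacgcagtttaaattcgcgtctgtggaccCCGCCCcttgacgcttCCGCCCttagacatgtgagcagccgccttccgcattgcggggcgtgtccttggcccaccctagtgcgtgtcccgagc
Mrpl40: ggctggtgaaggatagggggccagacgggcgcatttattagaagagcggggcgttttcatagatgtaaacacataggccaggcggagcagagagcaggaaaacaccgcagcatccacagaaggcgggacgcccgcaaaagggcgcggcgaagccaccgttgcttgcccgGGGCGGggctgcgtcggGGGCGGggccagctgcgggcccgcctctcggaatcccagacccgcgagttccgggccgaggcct
Mrpl49: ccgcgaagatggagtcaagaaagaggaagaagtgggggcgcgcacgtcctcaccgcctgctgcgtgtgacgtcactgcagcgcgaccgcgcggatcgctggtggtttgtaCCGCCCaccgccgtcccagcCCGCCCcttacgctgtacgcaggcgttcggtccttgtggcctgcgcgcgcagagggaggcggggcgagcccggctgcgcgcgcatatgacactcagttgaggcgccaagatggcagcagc

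From the lower end, the genes were Mrpl27 on the plus strand at chr11:94653571-94653820, Mrps22 on the minus strand at chr9:98601650-98601899 and Mrpl3 on the plus strand at chr9:105053048-105053297.
Mrpl27: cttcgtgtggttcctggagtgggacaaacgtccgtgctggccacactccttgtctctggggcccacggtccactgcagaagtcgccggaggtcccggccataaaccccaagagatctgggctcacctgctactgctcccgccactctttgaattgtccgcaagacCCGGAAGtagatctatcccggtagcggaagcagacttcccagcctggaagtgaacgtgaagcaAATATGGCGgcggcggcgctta
Mrps22: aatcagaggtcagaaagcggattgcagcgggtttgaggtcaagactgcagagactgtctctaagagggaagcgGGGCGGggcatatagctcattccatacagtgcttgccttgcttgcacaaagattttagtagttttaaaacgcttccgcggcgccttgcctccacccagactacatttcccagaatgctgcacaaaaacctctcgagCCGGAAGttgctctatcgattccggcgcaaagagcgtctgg
Mrpl3: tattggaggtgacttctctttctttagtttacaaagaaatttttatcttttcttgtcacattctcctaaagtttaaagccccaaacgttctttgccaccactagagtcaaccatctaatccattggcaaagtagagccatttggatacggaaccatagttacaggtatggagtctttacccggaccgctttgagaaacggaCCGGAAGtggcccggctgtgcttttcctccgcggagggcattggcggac

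The 3 promoters printed from the upper end each held 2 matches to the Sp1 motif, which binds GC boxes, and no match to the others in the stretch shown. Mrps34, second by mean percentile, is not printed. The 3 from the lower end each held 1 match to the ETS motif, beside which Mrpl27 held a Yy1 match and Mrps22 an Sp1 match. Peaks covered the whole printed stretch in all 4 libraries at 5 of the 6 genes and in 3 of 4 libraries at Mrpl3.

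All 78 genes had a Gfi1 peak and an Lsd1 peak at the promoter in both tumors. Over all autosomal protein-coding genes, 66.5% had a Gfi1 peak in tumor 39 and 56.0% in tumor 41. For Lsd1, 60.2% had a peak in tumor 39 and 63.4% in tumor 41. A peak in all 4 libraries was found at 54.8% of protein-coding genes. The family was thus bound without exception where the genome-wide share was between 56.0% and 66.5%.

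CpG content went along with binding in general. A gene was called CpG-rich when the 1 kb around its 5′ end had at least 50% G and C and an observed to expected CpG ratio of at least 0.6. This held for 62 of the 78 genes (79.5%) and for 45.7% of all autosomal protein-coding genes. Among CpG-rich genes, 97.9% had a Gfi1 peak in tumor 39, 87.1% a Gfi1 peak in tumor 41, 91.1% an Lsd1 peak in tumor 39 and 94.8% an Lsd1 peak in tumor 41. A peak in all 4 libraries was present at 86.6% of CpG-rich genes, much closer to the 100% of the family than the share over all genes. The 16 members outside the CpG-rich class were bound in all 4 libraries as well, whereas 28.1% of all genes outside that class were. These groups were not alike in CpG content, with a median observed to expected ratio of 0.548 in the 16 members and 0.242 in all genes outside the class. Of these 16, Mrpl33, Mrpl35 and Mrps24 had their strongest peak at an internal TSS, not at the 5′ end where CpG content was measured. A peak covered the 5′ end of Mrpl35 in no library, that of Mrpl33 in 3 of 4 and that of Mrps24 in all 4. The part of CpG content in the binding of the family was not tested.

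**Figure D1:**
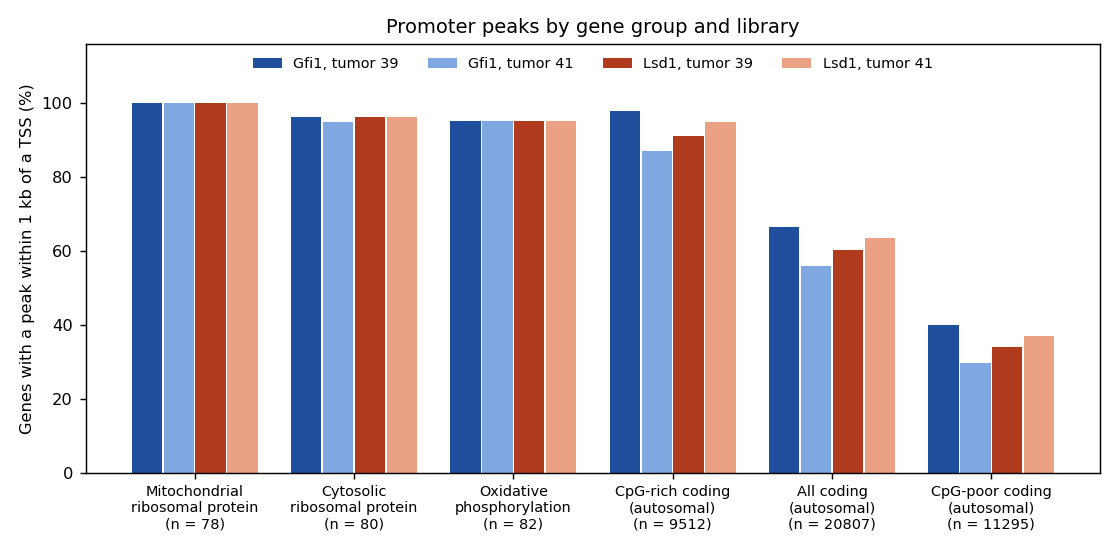
Share of genes (%) with a peak within 1 kb of a TSS, by gene group; each bar is 1 of the 4 libraries and bars start at 0. The 78 mitochondrial ribosomal protein genes stand at 100% in every library, all autosomal protein-coding genes between 56.0% and 66.5%, and the CpG-rich ones between 87.1% and 97.9%.

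Gfi1 and Lsd1 peaks overlapped by at least 1 bp at all 78 promoters in both tumors. Overlapping peaks were found at 59.3% of autosomal protein-coding genes in tumor 39 and at 55.5% in tumor 41. These shares lie close to the shares of genes bound at all. The midpoints of the strongest Gfi1 and Lsd1 peak of a member lay a median of 140 bp apart in tumor 39 and 211 bp apart in tumor 41. Over all autosomal protein-coding genes with a peak in all 4 libraries, these distances were 163 bp and 186 bp. When each peak was reduced to its central 200 bp, 50 of the 78 genes (64.1%) still had overlapping Gfi1 and Lsd1 peaks in tumor 39 and 41 (52.6%) in tumor 41. Among all genes with overlapping peaks these shares were 61.0% and 57.0%.

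The strength of binding did not set the family apart from other bound genes as its presence did. The median score percentile of its peaks was 84.0 in Gfi1 39, 80.7 in Gfi1 41, 79.8 in Lsd1 39 and 79.4 in Lsd1 41. For all autosomal protein-coding genes with a peak, the medians were 83.0, 78.0, 79.6 and 81.5 in the same order. The family lay above that median in 3 libraries and below it in Lsd1 of tumor 41, by 2.7 percentile points or less. The 62 CpG-rich members had medians of 85.4, 84.4, 80.9 and 82.2 and all bound CpG-rich genes 86.7, 81.1, 82.6 and 85.0, so that the members were higher in Gfi1 41 and lower in the others. The 16 other members had 74.6, 74.99, 71.2 and 71.9, above the 71.0, 67.7, 69.7 and 69.9 of all other bound genes in each library. Their median observed to expected CpG ratio was higher too, at 0.548 against 0.242 of all genes outside the CpG-rich class. Averaged over tumors, the median percentile of the family was 82.4 ± 2.32 for Gfi1 and 79.6 ± 0.241 for Lsd1 (SD, n = 2).

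Individual genes spanned percentiles of 66.1 to 98.6 in Gfi1 39 and 52.8 to 99.9 in Gfi1 41. They spanned 23.5 to 99.7 in Lsd1 39 and 49.4 to 99.2 in Lsd1 41. In the upper 20% of the list by score were 49, 40, 38 and 37 of the 78 genes. Of all autosomal protein-coding genes, 37.9%, 25.9%, 29.6% and 33.8% were in the upper 20% in these libraries. Counted among bound genes alone, the shares were 62.8%, 51.3%, 48.7% and 47.4% of the members and 57.0%, 46.2%, 49.2% and 53.3% of all bound genes. In all 4 libraries, 27 members (34.6%) were in the upper 20%, against 21.0% of all autosomal protein-coding genes and 38.3% of those with a peak in all 4 libraries. Among bound genes the share of the family was thus not the higher one. A further 31 members were there in some libraries and 20 in none.

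**Figure D2:**
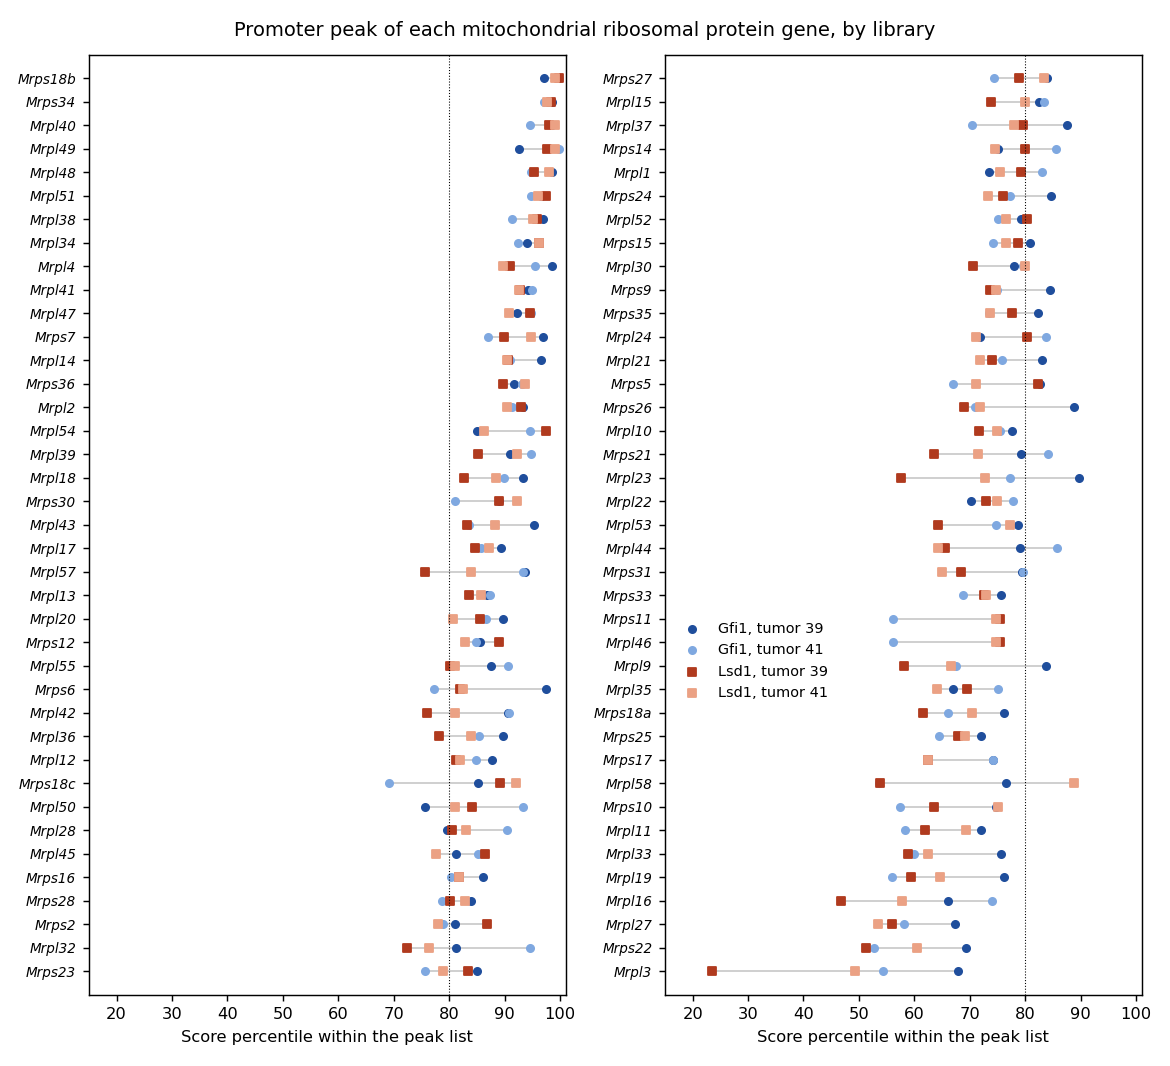
Score percentile within the peak list (x axis) of the promoter peak of each of the 78 genes, sorted by the mean over the 4 libraries (left panel, upper ranks; right panel, lower ranks). Each point is 1 library, grey lines span the lowest to the highest library and the dotted line marks the upper 20%; Mrps18b stands at the top and Mrpl3 at the bottom, with its Lsd1 peak of tumor 39 at 23.5.

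Mrps18b, 1 of the paralogous S18 proteins of the small subunit (ENSMUSG00000024436.16, minus strand, chr17:35910379-35916389), had the highest mean percentile. Its peaks were at percentiles 97.1 and 99.9 for Gfi1 in tumors 39 and 41, and 99.7 and 99.2 for Lsd1. They were 5722 to 6202 bp wide and reached into Ppp1r10, a regulator of protein phosphatase 1 that is transcribed in the opposite direction from within 1 kb.

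Mrps34, a small-subunit protein gained in mitochondria, followed with percentiles of 98.6 and 97.1 for Gfi1 and 98.4 and 97.6 for Lsd1. Its peaks, 4790 to 8776 bp wide, were longer than the gene itself (chr17:24895116-24897502). Its neighbour across the promoter is Eme2, a subunit of a DNA repair nuclease.

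Mrpl40 had Gfi1 percentiles of 98.6 and 94.6 and Lsd1 percentiles of 97.9 and 99.2, and lies opposite the histone chaperone gene Hira. Mrpl49 had Gfi1 percentiles of 92.7 and 99.9 and Lsd1 percentiles of 97.7 and 99.2, and lies opposite Fau, which encodes a cytosolic ribosomal protein. Mrpl48, opposite the Golgi GTPase gene Rab6a, had 98.6 and 94.8 for Gfi1 and 95.3 and 98.0 for Lsd1. Mrpl51, opposite the condensin gene Ncapd2, had 96.5 and 94.8 for Gfi1 and 97.4 and 96.1 for Lsd1. These 6 genes, the highest by mean percentile, all belonged to pairs of genes that start within 1 kb of each other on opposite strands. In Gfi1 of tumor 39, the value of 98.6 is a tie of 805 peaks at a score of 3100, so Mrps34, Mrpl40 and Mrpl48 cannot be ranked among themselves there. In Lsd1 of tumor 41, the value of 99.2 is a tie of 419 peaks at that score. It holds Mrps18b, Mrpl40 and Mrpl49, which likewise have no order there.

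The lowest mean percentile was that of Mrpl3, a large-subunit protein of bacterial descent (ENSMUSG00000032563.16, plus strand, chr9:105053239-105079888). Its Gfi1 peaks were at percentiles 67.9 and 54.4 in tumors 39 and 41, and its Lsd1 peaks at 23.5 and 49.4. Both Lsd1 values lay below both Gfi1 values. Its peaks were also the narrowest of the family on average, at 991 and 1114 bp for Gfi1 and 1032 and 1122 bp for Lsd1. Mrps22, whose human counterpart is mutated in inherited mitochondrial disease, had 69.4 and 52.8 for Gfi1 and 51.3 and 60.5 for Lsd1. Mrpl27 had 67.3 and 58.1 for Gfi1 and 56.0 and 53.5 for Lsd1.

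Large-subunit genes had higher percentiles than small-subunit genes in Gfi1 of tumor 41, where the medians were 85.2 and 75.7. They differed less elsewhere, at 85.1 and 84.0 in Gfi1 of tumor 39, 80.2 and 78.8 in Lsd1 of tumor 39, and 81.0 and 75.0 in Lsd1 of tumor 41. The direction was the same in all 4 libraries, but the gap in Gfi1 moved from 1.1 to 9.5 points between tumors. In all 4 libraries, 21 of 51 large-subunit genes and 6 of 27 small-subunit genes were in the upper 20%. In Gfi1 of tumor 39 alone the order of these shares was the other way round, with 31 of 51 and 18 of 27. Families with a bacterial counterpart, read from the family number in the symbol (46 genes), had medians of 82.6, 79.2, 78.5 and 75.9, and the 32 others 86.3, 84.4, 80.3 and 82.0. The second group also had more CpG-rich genes, 30 of 32 against 32 of 46.

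Shared promoters were frequent in the family. Another protein-coding gene started within 1 kb of 34 of the 78 genes (43.6%), against 14.9% of autosomal protein-coding genes, and it was on the opposite strand at 33 of them. Mrpl46 and Mrps11, of the large and the small subunit, face each other on chromosome 7 and fell under the same peak in all 4 libraries, so their values are 1 measurement. Other partners have mitochondrial roles of their own, such as Ndufb5 beside Mrpl47 and Ndufs6 beside Mrpl36, both subunits of complex I, Sars2 beside Mrps12, the mitochondrial seryl-tRNA synthetase, and Twnk beside Mrpl43, the helicase of mitochondrial DNA.

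Members with such a partner had median percentiles of 88.3 and 86.4 for Gfi1 in tumors 39 and 41 and 83.4 and 84.9 for Lsd1. The 44 members without a partner had 80.2 and 77.5 for Gfi1 and 76.1 and 75.2 for Lsd1. The gap between these groups was 7.4 to 9.7 points in every library. The same split of all bound protein-coding genes gave 89.9, 87.0, 86.8 and 88.2 with a partner and 80.6, 74.6, 76.8 and 78.9 without, a gap in the same direction. A peak at such a shared promoter cannot be assigned to either gene. Of the 34 members with a partner 33 were CpG-rich, and of the 44 others 29, so that sharing and CpG content moved together.

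Percentiles of the 2 factors come from lists of different length, longer for Gfi1 in tumor 39 and for Lsd1 in tumor 41, so a difference between them is read against all genes and not as a preference of the family. The median percentile for Lsd1 minus that for Gfi1 was -4.23 in tumor 39 and -1.29 in tumor 41 (mean -2.76). An exact two-sided permutation test over the 4 libraries gave p = 0.3333, the smallest that 2 against 2 libraries allow. Keeping the libraries paired by tumor gave p = 0.5 in the exact permutation test, which is also its smallest.

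Gene by gene, Lsd1 had the higher percentile at 20 of 78 members in tumor 39 and at 36 in tumor 41. Among the 11408 autosomal protein-coding genes with a peak in all libraries these shares were 29.5% and 70.3%, against 25.6% and 46.2% of members. The Gfi1 percentile was the higher one in both tumors at 28 members (35.9%), where 20.3% of all such genes were called in this way. The Lsd1 percentile was the higher one in both tumors at 6 members (7.69%), against 20.1%. These were Mrpl34, Mrpl46, Mrpl51, Mrpl52, Mrps11 and Mrps18c, of which Mrpl34 and Mrpl52 are named here after their values were seen. Scores of a single gene moved between tumors by a median of 6.99 points for Gfi1 and 3.46 points for Lsd1, while the median difference between the factors was -4.95 points in tumor 39 and -0.663 points in tumor 41. Over all 11408 genes that median difference was -4.59 and 4.65 points, so that the family was close to all genes in tumor 39 and lower in tumor 41.

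The largest lead of Gfi1 was at Mrpl3, with a mean difference of -24.7 points (Lsd1 minus Gfi1). Mrpl23 had 89.8 and 77.3 for Gfi1 and 57.7 and 72.7 for Lsd1. Mrpl16, a core protein of the large subunit, had 66.1 and 74.1 for Gfi1 and 46.8 and 57.7 for Lsd1. Mrpl44, which carries a ribonuclease III-like fold, had 79.0 and 85.8 for Gfi1 and 65.6 and 64.3 for Lsd1. At each of these 4 genes both Lsd1 values lay below both Gfi1 values.

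The largest lead of Lsd1 was at Mrps18c, a paralog of Mrps18b, with 85.2 and 69.1 for Gfi1 and 89.1 and 92.0 for Lsd1. Both Lsd1 values exceeded both Gfi1 values. The promoter of Mrpl46 and Mrps11 had 75.1 and 56.2 for Gfi1 and 75.4 and 74.7 for Lsd1, so that the lead came from tumor 41. Mrpl58, a peptidyl-tRNA hydrolase built into the large subunit, had 76.5 and 53.7 for Gfi1 and 53.7 and 88.8 for Lsd1, but the last value belongs to a peak at an internal TSS that shares no base with the other 3. The Lsd1 peak over its 5′ end in tumor 41 was at percentile 65.0.

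**Figure D3:**
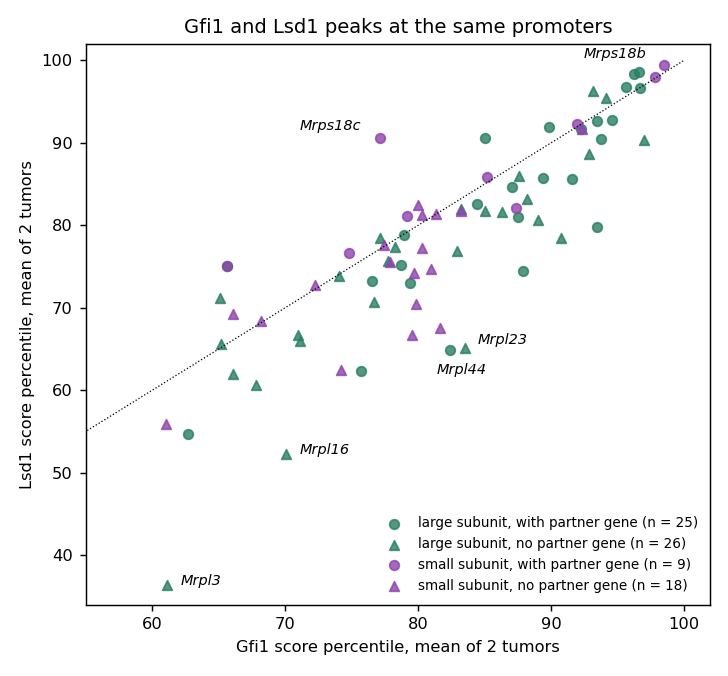
Mean score percentile of the Gfi1 peak (x axis) and of the Lsd1 peak (y axis) over 2 tumors at each of the 78 genes; colours mark the subunit, circles genes with a partner gene within 1 kb and triangles genes without one, and the dotted line marks equal values. Mrpl3, Mrpl16, Mrpl23 and Mrpl44 lie farthest below the line and Mrps18c farthest above it; Mrpl46 and Mrps11 share a point.

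The order of the genes was alike across libraries. Spearman's rank correlation of the percentile over the 78 genes was 0.711 between the Gfi1 libraries and 0.855 between the Lsd1 libraries. Between Gfi1 and Lsd1 it was 0.753 in tumor 39 and 0.742 in tumor 41. Over all 11408 genes bound in every library the same comparisons gave 0.770, 0.879, 0.755 and 0.774. These are descriptions across genes, which are not independent replicates; libraries of a tumor share chromatin, and all may share an input and the base composition of the promoters.

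Peaks at the family were somewhat narrower than at other genes. The median width was 1848 bp in Gfi1 39, 2208 bp in Gfi1 41, 2330 bp in Lsd1 39 and 2142 bp in Lsd1 41. All bound protein-coding genes had medians of 2103, 2210, 2539 and 2410 bp. The members' median minus that of all bound genes was -254.5, -1.5, -209.5 and -268 bp, so that it was lower in each library and hardly so in Gfi1 41. The mean of the medians was 2028 ± 255 bp for Gfi1 and 2236 ± 133 bp for Lsd1 (SD, n = 2), against 2156 ± 75.7 and 2474 ± 91.6 bp for all genes, so that the spread between tumors was as large as the difference for Gfi1.

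The widest peaks by the mean over libraries were those of Mrpl54, at 13760 and 5879 bp for Gfi1 and 8019 and 13779 bp for Lsd1 in tumors 39 and 41. They covered the whole gene (chr10:81264713-81266934) in every library. Mrpl38 had 8113 and 8292 bp for Gfi1 and 11317 and 10160 bp for Lsd1, at an internal TSS, and was the wider of the pair in Gfi1 41 and Lsd1 39. The peaks over the 5′ end of Mrpl38 were 2096 to 4866 bp wide and at percentiles of 69.2 to 77.2 instead of 91.4 to 96.9. Beside Mrpl3 the narrowest were those of Mrpl27, at 1147 to 1610 bp, and of Mrpl11, at 1227 to 1343 bp.

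**Figure D4:**
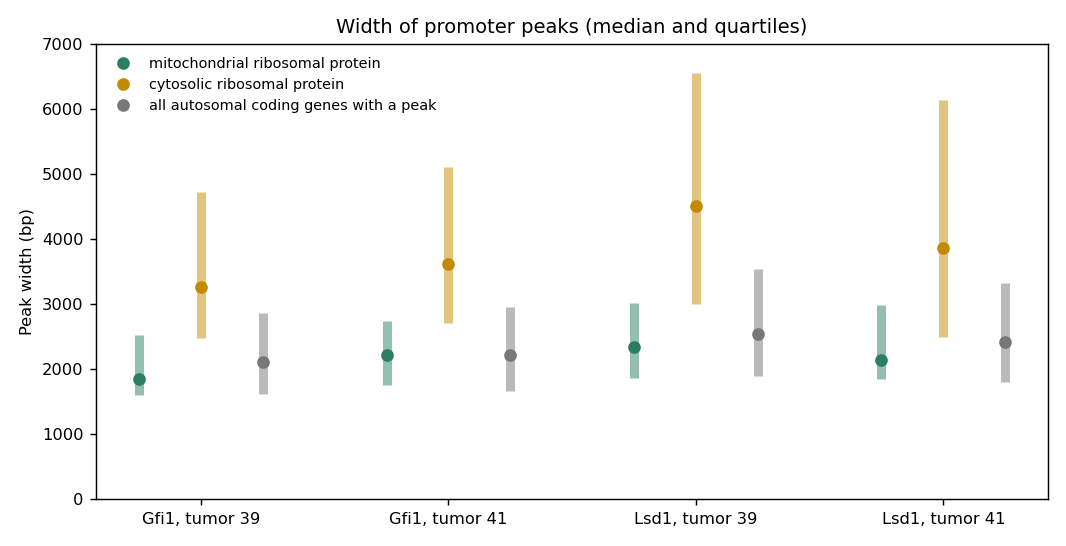
Width in bp (y axis, from 0) of the strongest promoter peak in each library for mitochondrial ribosomal protein genes, cytosolic ribosomal protein genes and all autosomal protein-coding genes with a peak; points are medians over genes and bars the lower to upper quartile. Medians of the mitochondrial group run from 1848 to 2330 bp and those of the cytosolic group from 3257 to 4501 bp.

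Peaks were centred close to the start of the genes. The median midpoint lay 84 and 174 bp downstream of the gene's 5′ end in the Gfi1 libraries and 118 and 151 bp in the Lsd1 libraries. For all bound genes it lay 228 to 249 bp downstream. Midpoints within 500 bp of the 5′ end were found at 62, 54, 57 and 58 members (79.5%, 69.2%, 73.1% and 74.4%), against 61.0% to 64.3% of all bound genes. The 5′ end itself was covered by a peak at 77, 76, 77 and 77 of the 78 members. Of all bound genes it was covered at 12448 of 13835, 10244 of 11653, 11330 of 12518 and 11914 of 13188. Over all autosomal protein-coding genes, bound or not, the shares were 59.8%, 49.2%, 54.5% and 57.3%. The exceptions among members were Mrpl35, whose peaks in all 4 libraries lay at TSS about 3.2 kb inside the gene, and Mrpl33 in Gfi1 of tumor 41, where the peak lay 17217 bp inside. The strongest peak lay away from the 5′ end in at least 1 library at 7 members, Mrpl2, Mrpl33, Mrpl35, Mrpl36, Mrpl38, Mrpl58 and Mrps24.

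**Figure D5:**
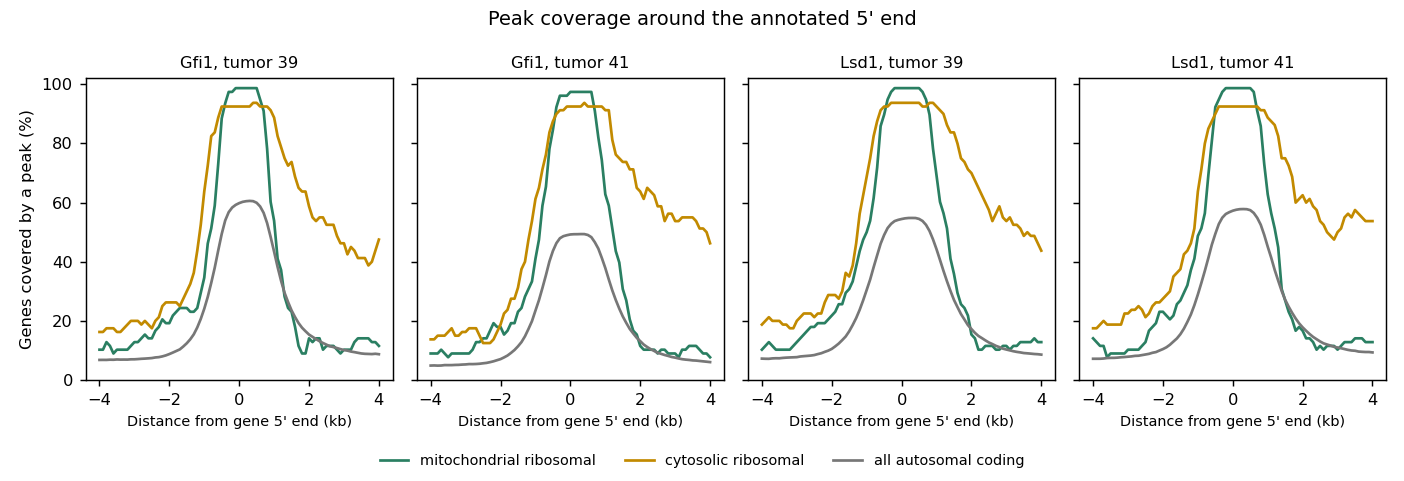
Share of genes (%, y axis) with a peak over each position from 4 kb upstream to 4 kb downstream of the annotated 5′ end (x axis, in steps of 100 bp), in 1 panel per library. At the 5′ end between 97.4% and 98.7% of mitochondrial ribosomal protein genes were covered. At 2 kb downstream their share was at 11.5% to 16.7%, near that of all genes, where cytosolic ribosomal protein genes stood at 58.8% to 70.0%. All genes here include those without a peak, so their curve is not that of bound genes.

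The cytosolic ribosome gave a contrast. Of 80 cytosolic ribosomal protein genes, 76 were bound in all 4 libraries. Their median percentiles were 91.7 and 92.8 for Gfi1 in tumors 39 and 41 and 90.1 and 88.4 for Lsd1. Their median widths were 3257 and 3612 bp for Gfi1 and 4501 and 3855 bp for Lsd1. Both measures were higher than in the mitochondrial family in each library, and 60 of the 80 cytosolic genes were in the upper 20% in all of them, where 27 of 78 mitochondrial genes were. Oxidative phosphorylation genes, which encode the nuclear partners of the proteins that the mitochondrial ribosome makes, were closer to the family. Of 82 such genes, 78 had a peak in each library, with median percentiles of 85.0, 85.6, 81.4 and 82.2.

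Other nuclear genes of mitochondrial translation were bound as widely. All 5 mitochondrial ribosomal protein genes with other symbols, 12 translation factors, 19 assembly factors and 17 mitochondrial aminoacyl-tRNA synthetases had peaks in all 4 libraries. Median percentiles of the translation factors were 82.2, 80.6, 77.2 and 78.3, and those of the synthetases 85.6, 85.9, 87.0 and 85.2. Dap3, a GTP-binding protein of the small subunit, had 95.6 and 85.9 for Gfi1 and 87.4 and 90.9 for Lsd1. Aurkaip1, also of the small subunit, had 89.9 and 91.3 for Gfi1 and 94.3 and 94.5 for Lsd1. Chchd1 ranged from 82.0 to 92.1, Ptcd3 from 74.3 to 85.5 and Gadd45gip1, a large-subunit protein, from 82.5 to 92.7.

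Motifs were searched in RefSeq promoters, from 250 bases before to 50 bases after the start on both strands, for the 69 of 78 genes with an entry and for 15686 autosomal protein-coding genes. The ETS motif CCGGAAG was found at 24 members (34.8%), against 12.6% of all promoters and 20.1% of CpG-rich ones. The Yy1 motif AANATGGCG was found at 11 members (15.9%), against 3.44% and 6.04%. The Nrf1 core GCATGCGC was found at 8 members (11.6%), against 3.79% and 6.51%. Of 60 promoters of cytosolic ribosomal protein genes, 38.3% held the ETS motif, 11.7% the Yy1 motif and 3.33% the Nrf1 core. Any of these 3 motifs, whose factors are known activators of genes for mitochondrial proteins, was found at 35 of the 69 promoters. No share over all promoters stands beside this count, so it is not read as a trait of the family.

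The Gfi1 motif AATCACNGC was found at 1 member (1.45%), Mrpl18, against 1.03% of all promoters and 1.19% of CpG-rich ones. The E-box CACGTG, bound by Myc, was found at 5 members (7.25%), against 8.09% and 11.0%. The Sp1 motif GGGCGG was found at 34 members (49.3%), against 48.8% and 73.1%. None of the 6 motifs was found at 15 members, a count that also has no share over all promoters beside it. Matches of different motifs overlapped in 1 promoter, for ETS and Sp1.

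Members with the Sp1 motif had median percentiles of 88.2 and 84.2 for Gfi1 and 81.0 and 81.4 for Lsd1, and members without it 79.3 and 77.8 for Gfi1 and 72.9 and 76.5 for Lsd1. Members with the ETS motif had 83.5 and 75.4 for Gfi1 and 74.8 and 78.1 for Lsd1, and those without it 83.8 and 83.1 for Gfi1 and 79.97 and 78.04 for Lsd1. The 5 members with the E-box had 89.7 and 85.3 for Gfi1 and 85.6 and 83.9 for Lsd1, and those without it 81.95 and 79.6 for Gfi1 and 78.8 and 76.9 for Lsd1. Members with Sp1 letters and members with the E-box thus had the higher median in every library, and members with the ETS motif in Lsd1 41 only. Members with the Nrf1 core had it in Gfi1 41 only, and members with the Yy1 motif in Gfi1 39 and Lsd1 41. Sp1 letters were at 73.1% of CpG-rich promoters against 48.8% of all, and CpG-rich members had the higher medians too. The part of CpG content in these gaps was not tested, and no such split of all genes is given here. A match is only a run of letters in the window and the absence of one says nothing of the factor.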

How the data were processed

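ChIP-seq of Gfi1 and Lsd1 from 2 MG tumors gave 4 peak lists, grouped by factor and paired by tumor. The authors aligned reads to mm10 with BWA (0.6.2), merged files and removed duplicates with Picard and called peaks with MACS (version not given in the sources used here) at default parameters per library against input chromatin; replicates were not pooled. From such peaks the study took a high-confidence set for each factor. It kept peaks in the upper 20% of enrichment that overlapped by at least 50% between replicates. The lists used here hold the peaks before that step, so a bound gene need not carry a high-confidence peak of the study. The upper 20% by score used above is not that set. The deposited lists hold 5 columns: chromosome, start, end, name and a score of at least 50, whose definition is not stated. Many peaks in 3 lists tie at a score of 3100, which limits the ranking of the strongest. The study gives a sequencing depth per library, but the lists carry no reads per peak, so that depth was not used here and no interval is given. Which input served which library is not given in the sources used here.

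Starts were taken as 0-based and raised by 1. Peaks were joined to TSS of all transcripts of protein-coding genes in GENCODE M21 (the study used M9) within 1 kb; the highest-scoring such peak stands for a gene, and scores were turned into percentiles within the list with Python 3.11.15, numpy 2.4.6 and scipy 1.17.1 (pysam 0.24.0 and matplotlib 3.10.9 for sequence and plots). On simulated lists the join recovered 600 of 600 planted peaks. Groups of genes are described by counts and medians; the only test is the exact permutation over libraries. Named genes were the 6 highest and 3 lowest by mean percentile, the 4 largest differences between factors each way, the 3 widest and 3 narrowest, and 5 mitochondrial ribosomal proteins with other symbols. The members and gene lists were chosen with earlier results of these data known. Alternatives covered the window, the choice of TSS and peak, overlap, score cuts, left-out libraries, crossed tumors and the replicate block. RefSeq promoters have no entry used here for 9 members.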

Additional observations from a re-analysis of the deposited data

How the results depend on the processing

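Of 67 alternative values, 55 stayed within the spread between tumors or 1.5 times the count, and the sign of the difference Lsd1 minus Gfi1 did not turn. Part of these 55 could not have come out otherwise, so the tally is no measure of robustness. They include shares bound and medians with 1 library left out, and the paired difference. With the gene's 5′ end as the only TSS, the share with a Gfi1 peak was 98.1%, with an Lsd1 peak 98.7% and with overlapping peaks 98.1%, and the Lsd1 median percentile 78.8; taking the peak closest to a TSS gave 78.2. Without members that share a promoter, the median percentile fell to 78.9 for Gfi1 and 75.6 for Lsd1, and 22.7% were in the upper 20% of every library. The medians by library were then 80.2, 77.5, 76.1 and 75.2. All bound genes without a partner had 80.6, 74.6, 76.8 and 78.9. These members were thus higher than such genes in Gfi1 41 and lower in the others. Requiring 50% of the Gfi1 peak to be covered gave an overlap of 99.4%, and trimming to the central 200 bp gave 58.3%, the mean over tumors. In all libraries, 15.4% of members were in the upper 10% of the score (8.66% of all genes, 15.8% of genes bound in all libraries) and 83.3% in the upper 40% (40.9% and 74.6%).

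Leaving out 1 library at a time could not move the shares bound from 100%, as every member had a peak in every library. The share in the upper 20% throughout could not fall when a library was removed, and was between 35.9% and 38.5%. The Gfi1 median was between 80.7 and 84.0 and the Lsd1 median between 79.4 and 79.8. With 2 libraries per factor, the value of either one always lies within their SD of the mean. The difference Lsd1 minus Gfi1 was between -4.40 and -1.12 percentile points. With the replicate block, in which libraries are paired by tumor, the difference was -2.76 (p = 0.5, exact permutation test, the smallest it allows). Pairing Gfi1 of a tumor with Lsd1 of the other left the overlap at 100%. With 2 tumors the smallest p that the test can give is 0.3333. Score ties, the lack of reads per peak and peaks of shared promoters limit the ranking of single genes; at Mrpl58 and Mrpl2 the highest peaks of the 4 libraries were not the same peak.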

Other observations

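The 5 processed pseudogenes of the family in the annotation, Mrpl23-ps1, Mrpl48-ps, Mrps36-ps1, Mrps36-ps2 and Mrps36-ps3, had no peak within 1 kb in any library, although each derives from a gene that was bound in all of them. Of 8924 autosomal processed pseudogenes, 3.80% and 2.12% had a Gfi1 peak in tumors 39 and 41 and 2.89% and 2.88% an Lsd1 peak, so that a peak is rare at such copies in general. Processed pseudogenes are copied from mature RNA and carry no promoter of the parent gene.

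Peaks in the body of a member, beyond 1 kb from any TSS, were present at 16 and 14 genes for Gfi1 in tumors 39 and 41 and at 17 and 15 for Lsd1. These are 20.5%, 17.9%, 21.8% and 19.2% of members, against 25.6%, 19.2%, 22.2% and 23.6% of all autosomal protein-coding genes and 34.3%, 28.04%, 31.6% and 32.7% of those with a promoter peak. Mrpl10, Mrpl12, Mrps16, Mrps18b and Mrps27 had such a peak in all 4 libraries and are named after their values were seen. No share over all genes stands beside that call, so it is not read as a trait of the family. Gene length was not matched in these comparisons. More than 1 promoter peak was present at 14 and 7 members for Gfi1 and at 13 and 9 for Lsd1 (17.9%, 8.97%, 16.7% and 11.5%), against 22.1%, 19.3%, 18.2% and 19.98% of genes with a promoter peak.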
